A study of Mus musculus with 5 samples.

Results

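Cycling mesenchymal nuclei are nuclei of connective tissue cells that carried transcripts of the cell division program when the muscle was frozen. They were chosen by 3 criteria applied to each nucleus of 4 libraries of mouse hindlimb skeletal muscle. A nucleus had to hold over 400 and under 25000 unique molecular identifiers (UMIs, each standing for 1 captured RNA molecule) over all genes. It had to pass a mesenchymal gate, which asked for at least 3 detected genes of the 10 gate genes Pdgfra, Dcn, Lum, Dpt, Col14a1, Abca8a, Mfap5, Osr1, Twist2 and Ebf2, with a sum of at least 0.1% of the UMIs, for Ttn (titin) under 1% of the UMIs and for Tnmd (tenomodulin, a tendon gene) at 0. Finally it had to hold at least 3 UMIs summed over the 5 cycling genes Mki67, Top2a, Cenpf, Aspm and Anln. In all, 835 nuclei met the 3 criteria, of 4646 gated nuclei and 16094 nuclei within the UMI limits of the 4 libraries, or of 21209 when the adult library is included. The comparison class was the 3387 gated nuclei with 0 UMIs of the 5 cycling genes, and the 424 gated nuclei with 1 or 2 UMIs belonged to neither class.

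RNA and open chromatin (ATAC) were read in the same nuclei with the 10x Genomics multiome assay, in 1 library per group. The wild-type groups were WT C57bl6n hindlimb muscles taken on embryonic days E14.5 and E18.5, on postnatal day P5 and from adults, and the knockout group (KO) was Cacna1s-/- C57bl6n at E18.5, which lacks the pore subunit of the muscle L-type calcium channel that couples excitation to contraction. Each library pooled hindlimbs of several animals (56, 14, 8 and 4 for the WT ages in that order and 26 for the KO), so that animals cannot be told apart, the spread between animals is unknown and no test between groups was possible. The nuclei had been sorted on the markers PCM1 and PCNA, the PCM1-positive and the PCM1-negative PCNA-positive fractions having been mixed in equal volumes, and the part of this sort in the shares of cycling nuclei was not tested.

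The targeted gene followed the labels. Cacna1s (GRCm38 chromosome 1, 136052750 to 136119822) was at 100, 83.5 and 194 CPM (UMIs of a gene per 1000000 UMIs) over all nuclei within the limits of the E14.5, E18.5 and P5 libraries, at 306 CPM in the adult library and at 0.274 CPM (8 UMIs) in the KO library. The cycling mesenchymal nuclei held 7, 13, 7 and 0 of its UMIs, where sets of 4 values are always given in the order WT E14.5, WT E18.5, WT P5 and KO. The libraries held 3621 to 5407 barcodes each, and the nuclei within the UMI limits held 21126586 to 29865905 gene UMIs. Pairs of libraries shared 17 to 47 barcodes, and members shared 1 barcode between libraries (WT E18.5 and KO).

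Fibroblast progenitors of the limb build the connective tissue of muscle, including the endomysium, perimysium and the adventitia of vessels, and they supply growth factors to the myogenic cells beside them. They multiply in the fetus and are largely quiescent in adult muscle. A dividing cell first loads replication origins with the MCM helicase and activates E2F factors, then copies its DNA in S phase. In G2 and M phase the factors B-Myb and FoxM1 drive genes for the spindle, the kinetochore and the cleavage furrow. Among the 5 cycling genes, Mki67 encodes the Ki-67 protein that coats mitotic chromosomes, Top2a the topoisomerase that untangles sister chromatids, Cenpf a kinetochore protein, Aspm a spindle pole protein and Anln the anillin scaffold of the contractile ring.

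Promoters of late cell cycle genes are known for CCAAT boxes, which bind NF-Y, and for CHR elements, which bind the DREAM complex and B-Myb. The 150 bases before the RefSeq start of the 5 cycling genes are shown because these genes define the nuclei and are read again in their ATAC signal, with Plk1 and Ccnb2 added after their values were seen, as a mitotic kinase and a mitotic cyclin with promoter ratios among the high ones. Sequences are those of RefSeq on GRCm38.p6, 5′ to 3′ on the strand of the gene, and capitals mark CCAAT boxes and CHR-type motifs.
Mki67, chr7:135716380-135716529, minus strand: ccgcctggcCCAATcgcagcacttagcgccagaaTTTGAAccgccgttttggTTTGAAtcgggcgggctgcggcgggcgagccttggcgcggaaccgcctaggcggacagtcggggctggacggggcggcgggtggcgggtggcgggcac
Top2a, chr11:99024190-99024339, minus strand: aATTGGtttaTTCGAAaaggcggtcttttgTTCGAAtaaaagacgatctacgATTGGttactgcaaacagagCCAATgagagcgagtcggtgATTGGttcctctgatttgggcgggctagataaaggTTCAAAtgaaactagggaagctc
Cenpf, chr1:189688087-189688236, minus strand: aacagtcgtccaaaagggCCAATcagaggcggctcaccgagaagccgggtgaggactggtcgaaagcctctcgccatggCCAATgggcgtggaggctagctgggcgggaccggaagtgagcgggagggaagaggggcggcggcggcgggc
Aspm, chr1:139454623-139454772, plus strand: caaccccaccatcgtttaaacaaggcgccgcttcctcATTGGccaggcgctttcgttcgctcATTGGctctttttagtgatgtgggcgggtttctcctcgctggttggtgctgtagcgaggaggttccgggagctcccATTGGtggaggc
Anln, chr9:22389207-22389356, minus strand: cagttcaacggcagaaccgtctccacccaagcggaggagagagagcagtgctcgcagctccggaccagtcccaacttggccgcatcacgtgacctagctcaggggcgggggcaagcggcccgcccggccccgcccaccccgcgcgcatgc
Plk1, chr7:122159285-122159434, plus strand: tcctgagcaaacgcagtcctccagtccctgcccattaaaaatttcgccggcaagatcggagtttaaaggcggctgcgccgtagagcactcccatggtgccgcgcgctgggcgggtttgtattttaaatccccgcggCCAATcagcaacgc
Ccnb2, chr9:70421555-70421704, minus strand: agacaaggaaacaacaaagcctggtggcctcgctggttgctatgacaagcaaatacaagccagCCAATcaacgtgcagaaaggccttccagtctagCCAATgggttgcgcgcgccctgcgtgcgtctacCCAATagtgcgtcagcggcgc

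Motifs were searched on both strands of the 250 bases before each start. A CCAAT box was the run CCAAT, which reads ATTGG on the opposite strand. A CHR-type motif was the run TTTGAA, which reads TTCAAA on the opposite strand, or the palindromic run TTCGAA. An E2F-type motif was TTTGGCGC, TTTCGCGC or TTTCCCGC, whose reverse complements are GCGCCAAA, GCGCGAAA and GCGGGAAA. In the sequences above, Top2a held 4 CCAAT boxes, Aspm and Ccnb2 3 each, Cenpf 2, and Mki67 and Plk1 1 each. Mki67 held 2 CHR-type motifs and Top2a 3, while Anln had none of these letters in the shown window. Of all 32851 RefSeq promoters (27025 genes), 33.8% held a CCAAT box, 17.1% a CHR-type motif and 1.53% an E2F-type motif within 250 bases. Among the promoters of cycle genes, CCAAT boxes were held by 70.6% of 17 promoters for replication licensing (15 of 22 genes matched), 69.2% of 13 for cytokinesis (11 of 16 genes), 60% of 25 for the spindle (24 of 26 genes) and 58.1% of 31 for the kinetochore (28 of 32 genes), against 16.7% of 18 for matrix genes (15 of 25 genes). The share was lower in other cycle lists, at 43.8% of 32 for DNA synthesis, 44.4% of 18 for condensin, cohesin and nuclear envelope and 47.1% of 17 for DNA repair, and it was 64.7% of 17 for limb mesenchyme factors, 77.8% of 9 for neuron markers and 83.3% of 6 for erythroid markers, so a high share was not limited to cycle lists. E2F-type motifs were held by 35.3% of the licensing promoters and 40% of the 15 promoters of cycle transcription factors (11 of 15 genes), against 8% for the spindle and 0% for matrix genes. These matches describe letters in a window and were not tested as binding sites.

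Cycling nuclei made up 16.4% of the gated mesenchymal nuclei of the E14.5 library (151 of 918, exact Clopper-Pearson 95% interval 14.1 to 18.96). The share was 20.4% in the E18.5 library (301 of 1475, 18.4 to 22.6), 7.30% in the P5 library (87 of 1191, 5.89 to 8.93) and 27.9% in the KO library (296 of 1062, 25.2 to 30.7). None of the 251 gated adult nuclei reached 3 UMIs, with an upper end of the exact 95% interval of 1.46%. Intervals and limits of this kind cover counting error within a library only, and they do not cover differences between animals or between sorts. Among nuclei outside the gate, which include myonuclei, the shares with at least 3 UMIs were 11.1, 11.4, 4.76 and 20.9%, and 0.0822% in the adult. Among the 4 libraries with members, the share outside the gate was thus highest in the KO and lowest at P5 as well.

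Members held more UMIs per nucleus than nuclei at 0, and the UMIs per nucleus also differed between libraries. The median UMI count per member was 5557, 8557, 7462 and 11416.5, against 3797, 5183, 4352 and 6412 in the nuclei at 0. When every gated nucleus of at least 3000 UMIs was thinned to 3000, the share with at least 3 UMIs of the cycling genes was 15.4% (12.8 to 18.2), 16.8% (14.8 to 18.8), 6.40% (4.95 to 8.14) and 20.4% (17.97 to 23.0). This left out 182, 102, 223 and 22 shallower nuclei. Outside the gate the thinned shares were 10.6, 9.20, 3.85 and 16.9%. In the gated adult nuclei 0 of 61 deep enough nuclei reached 3 UMIs, which allows up to 4.92%. At equal depth, within the gate, the intervals of E14.5 and E18.5 overlapped, as did those of E18.5 and the KO, and P5 lay below all of them.

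Markers of other cell types were also found in the members. At least 2 UMIs of the myonuclear list (titin, nebulin and other sarcomere genes) were held by 22.5, 48.5, 43.7 and 57.4% of the members, against 12.9, 31.8, 20.9 and 31.1% of the shallower nuclei at 0. In CPM the list was at 899, 1394, 2213 and 1129 in members and at 1408, 1025, 496 and 1245 in nuclei at 0, so that it was higher in members at E18.5 and P5 and lower in the other libraries. The macrophage list was at 7.51, 196, 231 and 326 CPM versus 7.76, 73.5, 154 and 223 CPM, with 5 of its 8 genes at 0 in E14.5 members. The myogenic progenitor list was higher in members in all 4 libraries, at 177, 131, 207 and 307 CPM versus 128, 81.3, 72.0 and 167 CPM. At least 2 of its UMIs were held by 16.6, 17.3, 28.7 and 30.7% of members and 12.1, 7.39, 6.07 and 17.7% of nuclei at 0. The part of dividing muscle progenitors among the members was not tested. For 9, 26, 9 and 43 members (5.96, 8.64, 10.3 and 14.53%), the UMIs of another cell class exceeded those of the 10 gate genes. Scrublet, a caller of doublets, marked 12, 66 and 117 members at E14.5, E18.5 and in the KO and marked no nucleus at P5. Without all nuclei holding at least 2 UMIs of another class, the shares were 14.53, 12.4, 2.56 and 14.8%, and without the Scrublet calls that of the KO was 21.3%. The difference in share between KO and WT at E18.5 thus shrank to 14.8 versus 12.4% in nuclei without other markers. The minimum of 2 UMIs takes no account of depth, so deeper nuclei fail it more readily. In the KO, the smooth muscle and pericyte list reached it in 63.5% of members and 45.3% of nuclei at 0, at 326 and 321 CPM. The part of depth in the smaller difference was not tested. Fewer members remain under this filter, so that fewer genes reach the minimum of UMIs in the counts that follow.

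The 5 cycling genes were detected together in many members of all 4 libraries. Their levels are a description, since they chose the nuclei. Top2a was at 751, 1043, 785 and 854 CPM. Mki67 was at 340, 411, 426 and 504 CPM, Anln at 380, 425, 375 and 395 CPM, Cenpf at 290, 275, 299 and 339 CPM and Aspm at 232, 208, 236 and 264 CPM. No library was highest or lowest for all 5 genes. Top2a was detected in 93.4, 95.3, 85.1 and 93.9% of the members and Aspm in 51.7, 55.5, 55.2 and 65.9%. The median member held 11, 17, 14 and 25 UMIs of the 5 genes together, and 50, 125, 29 and 169 members had all 5 genes detected.

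Members at the threshold differed from the typical member. Exactly 3 UMIs were held by 18, 27, 4 and 22 members, and 28, 33, 18 and 29 gated nuclei with 2 UMIs lay just outside. A set of 37 G2/M genes without the 5 cycling genes was at 2920, 741, 1069 and 766 CPM just inside and at 629, 624, 1072 and 217 CPM just outside, against 6617, 6763, 6197 and 7166 CPM over all members. At E14.5 and in the KO the nuclei just inside were thus above those just outside, and at E18.5 and P5 the pools were close to each other.

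The levels of the gate genes, which the rule used, are given as a description. Ebf2, a transcription factor of mesenchymal progenitors, was at 1565, 1487, 1573 and 1590 CPM in members and at 1520, 1708, 1895 and 1867 CPM in nuclei at 0. Pdgfra, the receptor that marks fibro-adipogenic progenitors, was at 321, 307, 242 and 326 CPM in members against 392, 345, 259 and 381 CPM. Abca8a, a lipid transporter of fibroblasts, was at 63.3, 384, 1155 and 308 CPM in members and at 84.3, 449, 1521 and 388 CPM in nuclei at 0. The members were below the nuclei at 0 for the sum of the 10 genes in each library, at 2833, 3794, 5013 and 3211 CPM versus 3095, 4666, 6741 and 3998 CPM.

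Most members carried S and G2/M transcripts together. After thinning to 3000 UMIs, at least 3 UMIs of the 37 G2/M genes were found in 95.7, 87.2, 89.0 and 88.0% of the members, against 3.14, 1.56, 0.367 and 2.23% of the nuclei at 0. At least 3 UMIs of the 35 S genes were found in 90.0, 89.3, 82.9 and 87.6% of the members, but also in 55.3, 51.3, 31.9 and 45.0% of the nuclei at 0. The G2/M genes were thus close to absent from the nuclei at 0, while S genes were found in many of them. Both programs were present in 87.1, 77.2, 76.8 and 79.4% of the members, S alone in 2.86, 12.1, 6.10 and 8.25% and neither in 1.43, 0.671, 4.88 and 3.78%. Gated nuclei with 1 UMI of the cycling genes had the G2/M set in 21.0, 13.9, 9.09 and 4.35% and those with 2 UMIs in 16.7, 21.2, 21.4 and 10.7%. The rule used genes of the same program, so these shares describe the class and do not test it.

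**Figure D1:**
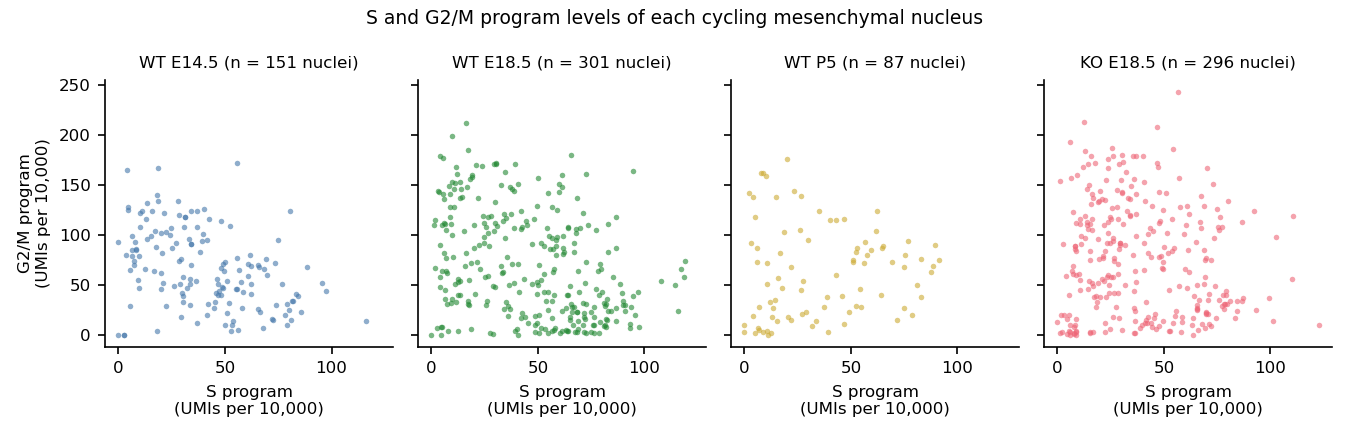
Each point is 1 cycling mesenchymal nucleus, placed by its S program (35 genes, horizontal axis) and its G2/M program (37 genes without the 5 cycling genes, vertical axis), in UMIs per 10000 UMIs of the nucleus, 1 panel per library. Nuclei spread along a band from high G2/M with low S to high S with low G2/M in each library, with 151, 301, 87 and 296 nuclei from left to right.

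Within each library the members were set against the nuclei at 0 gene by gene. A gene was called higher or lower when its CPM ratio was at least 2-fold in all 4 libraries, a rule of size with no test. Of 10678 genes measured in all 4 libraries, 323 (3.02%) were higher and 7 (0.0656%) lower in the members. Within the single libraries, 4.9, 6.71, 9.86 and 7.22% of the measured genes were at least 2-fold higher and 6.46, 3.53, 6.89 and 3.17% at least 2-fold lower. The rule selected on 5 genes of this contrast, so the counts of the following lists are given beside 3.02% and nothing is read from them.

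Genes of mitosis led the difference. All 25 measured spindle genes were higher in all 4 libraries (median log2 ratio over libraries 5.87), as were all 16 cytokinesis genes and 29 of 31 kinetochore genes (median 4.30, the exceptions being Cenpo and Cenpt). Kif15, a kinesin of the spindle, was at 501, 474, 517 and 527 CPM in members against 8.82, 3.66, 4.12 and 3.68 CPM. Ckap5, a microtubule polymerase also used outside mitosis, was at 605, 598, 467 and 604 CPM versus 155, 138, 134 and 138 CPM. Kif15 was thus scarce in the nuclei at 0 and Ckap5 was not. Knl1, the kinetochore scaffold that recruits the spindle checkpoint, was at 434, 487, 492 and 530 CPM versus 1.76, 3.32, 2.89 and 3.25 CPM, and Ndc80, which binds microtubules, at 157, 191, 160 and 181 CPM versus 1.76, 0.665, 0.825 and 1.30 CPM. The formin Diaph3 had the most UMIs of the cytokinesis list (not adjusted for gene length), at 1273, 1435, 1663 and 1515 CPM versus 37.8, 31.6, 31.8 and 36.6 CPM. Kif23, the motor of the central spindle, was at 292, 300, 229 and 321 CPM versus 2.47, 0.499, 2.06 and 0.650 CPM. Genes such as Knl1, Ndc80 and Kif23 thus had almost no UMIs in the nuclei at 0, while Ckap5 was 3.898, 4.33, 3.49 and 4.36 times higher over a substantial level.

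The machinery that engages and disengages mitosis followed in part. Among cyclins and cyclin-dependent kinases 12 of 21 were higher in all libraries, among them Ccna2, Ccnb1, Ccnb2, Cdk1 and Cdc25c but none of the D-type cyclins Ccnd1, Ccnd2 and Ccnd3 and not Cdk4. Ccnb1, the mitotic cyclin, was at 59.0, 56.5, 56.7 and 58.7 CPM in members against 0.353, 0.499, 0.412 and 0.433 CPM. Ccnf, the F-box cyclin of G2, was at 159, 175, 127 and 206 CPM versus 8.12, 5.65, 1.03 and 4.33 CPM. Both were at most 8.12 CPM in the nuclei at 0. Of 12 measured genes of the anaphase-promoting complex and its partners, 4 were higher, namely Cdc20, Fzr1, Ube2s and Fbxo5. Cdc20, the activator of the complex in mitosis, was at 27.9, 35.3, 34.6 and 28.9 CPM, with 0 UMIs in the nuclei at 0 of E14.5 and P5 (at least 26.3-fold and 55.9-fold higher in members). Cdc27, a core subunit that non-dividing cells also use, was 1.73, 1.66, 1.79 and 1.71 times higher and passed the 2-fold limit in no library. Esco2, the cohesin acetyltransferase of S phase, was at 182, 194, 146 and 190 CPM versus 1.41, 0.499, 0.619 and 1.08 CPM, whereas Stag1, a cohesin subunit of all cells, was 1.35, 1.27, 1.29 and 1.19 times higher.

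Genes of DNA replication were split by whether nuclei at 0 also held them. In the licensing list 9 of 20 measured genes were higher in all libraries (median log2 ratio 1.40), namely Mcm10, Cdc6, Gmnn, Orc1, Cdc45, Gins1, Gins3, Dbf4 and Ticrr, and none of the helicase subunits Mcm2 to Mcm7. Dbf4, the activator of the origin kinase, was at 137, 137, 91.2 and 157 CPM in members against 13.1, 6.98, 5.98 and 6.50 CPM. Its partner kinase Cdc7 was 1.96, 2.65, 3.70 and 3.19 times higher. In the DNA synthesis list 15 of 31 genes were higher (median 1.23). Pola1, the catalytic subunit of DNA polymerase alpha, was at 692, 657, 658 and 726 CPM in members and at 313, 279, 218 and 309 CPM in nuclei at 0, so that its ratio was 2.21 to 3.02. The DNA repair list was higher for 17 of 18 genes (median 3.60, the exception being Chek1), with Fancd2, the target of the Fanconi pathway, at 102, 74.1, 87.1 and 92.1 CPM versus 3.18, 2.66, 3.51 and 3.47 CPM.

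Among the transcription factors of the cycle 9 of 15 were higher in all libraries, namely E2f2, E2f7, E2f8, Mybl1, Mybl2, Foxm1, Rbl1, Lin9 and Lin54. E2f7, an E2F repressor of late S phase, was at 153, 207, 156 and 157 CPM versus 18.7, 18.6, 10.9 and 7.37 CPM. Foxm1, the activator of mitotic genes, was at 44.0, 44.5, 35.9 and 41.5 CPM versus 2.47, 2.16, 1.86 and 0.866 CPM. Rb1, the pocket protein that holds E2F in check, was 1.496, 1.84, 2.30 and 1.76 times higher. None of the 12 measured cell cycle inhibitors was higher in all 4 libraries (median −0.04). Cdkn1c, the inhibitor p57 and the one with the most UMIs, was at 161, 196, 69.1 and 211 CPM in members against 148, 224, 114 and 188 CPM. Cdkn2c, the inhibitor p18, was at or above 13.9 CPM in members and at or below 1.95 CPM in nuclei at 0 in every library, but too few UMIs at E14.5 kept it out of the count.

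Replication-dependent histone genes were low in this assay, which primes on poly(A) tails that these transcripts mostly lack. Only Hist1h1e and Hist1h4d were measured in all 4 libraries, and both were higher in the members. Hist1h1e was at 39.7, 26.8, 31.8 and 34.2 CPM versus 8.12, 5.15, 12.8 and 12.6 CPM. Hist1h2ap varied most between libraries, at 286, 42.4, 16.6 and 66.5 CPM in members and 17.3, 0.332, 0.619 and 3.47 CPM in nuclei at 0. Reads of these near-identical genes may be split or shared between copies, so single histone values are uncertain.

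Lists of mesenchymal identity held no gene called in all 4 libraries. These were the limb mesenchyme, connective tissue, adventitial, matrix, mitogen, imprinted and immediate early lists, with medians of −0.07, −0.05, −0.35, −0.29, −0.23, −0.20 and 0.01 against −0.05 over all genes. The adventitial list differed most at P5, with 2 of 12 genes lower (median −0.75) and a summed level of 3164 CPM in members versus 5252 CPM in nuclei at 0. Tbx15, a limb mesenchyme factor, was at 662, 735, 463 and 431 CPM in members against 604, 703, 435 and 419 CPM. Ebf1, a factor of fibroblasts and adipocyte precursors, was at 2646, 3243, 4290 and 3327 CPM and was 0.852, 0.915, 0.891 and 0.908 times the level of nuclei at 0. Sema3c, a semaphorin of adventitial progenitors, was 0.990, 0.804, 0.564 and 0.758 times, Col3a1, a fibrillar collagen, 0.915, 0.784, 0.683 and 0.849 times and the imprinted RNA Meg3 0.862, 0.785, 0.734 and 0.844 times the level of nuclei at 0. Each of these 3 ratios was lowest at P5. Fgf10, a fibroblast growth factor, was 0.651, 0.593, 0.520 and 0.834 times that level. Runx1 was 4.08 times higher at P5, where 22 of its 73 UMIs were in 1 nucleus, and 0.558, 1.26 and 1.59 times in the other libraries.

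**Figure D2:**
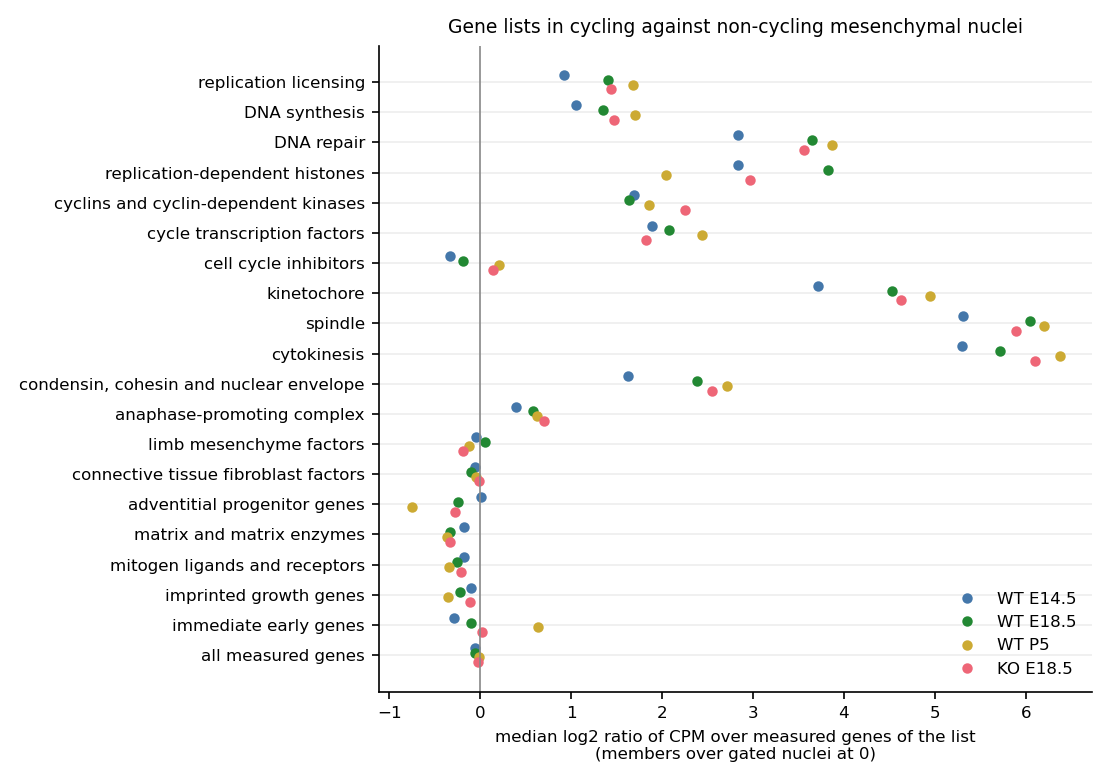
Median log2 ratio of CPM, members over gated nuclei at 0, of the measured genes of each list (rows), 1 point per library in color. Spindle, cytokinesis and kinetochore genes lie farthest to the right, with medians over libraries of 5.87 for the spindle and 4.30 for the kinetochore, and the identity lists lie near 0; the contrast was used to choose the members.

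Outside the lists, genes with the largest ratios were further genes of division. Depdc1a, a mitotic regulator, was at 212, 223, 187 and 266 CPM in members and had 0 UMIs in the nuclei at 0 of E14.5, P5 and the KO (at least 201-fold, 302-fold and 410-fold higher). Neil3, a DNA glycosylase of S phase, was at 332, 490, 549 and 521 CPM versus 3.53, 3.99, 2.68 and 3.90 CPM. Lockd, a noncoding RNA beside Cdkn1b, was at 153, 337, 224 and 335 CPM versus 0.353, 3.99, 1.44 and 4.77 CPM, and whether counting used the strand is not stated. The 7 genes lower in all libraries included Lonrf2, Tcea3, Adamts17, Anpep, Unc79 and Jph4. Unc79 rested on 3 to 7 UMIs in the members of each library, and its log2 ratio in the KO went from −1.40 to 0.024 with no upper UMI limit. Adamts17, a secreted metalloproteinase, was at 140, 29.7, 98.1 and 74.7 CPM in members against 321, 91.7, 206 and 187 CPM. Tcea3, an elongation factor, was at 1.07, 6.001, 15.2 and 9.54 CPM versus 10.2, 18.9, 33.2 and 23.0 CPM. Without nuclei holding other class markers, the 323 genes higher in all libraries became 154.

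The next 3 comparisons set members of different libraries side by side, and all of them use the members of WT E18.5, so they are not independent of each other. A gene was called when its CPM differed by at least 2-fold, again without a test, and intervals are exact conditional 95% intervals that cover counting error only. List members named beside the largest in each direction were chosen after their values were seen.

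From E14.5 to E18.5 the cycling nuclei had higher levels of adventitial progenitor genes and of some matrix genes. Genes of division, whose program chose the members of both libraries, stayed close. In all, 1106 of 10468 genes (10.6%) were higher and 543 (5.19%) lower at E18.5, with a median log2 ratio of 0.07 over all genes. In the nuclei at 0, 9.11% were higher and 8.94% lower. Of the 11 measured adventitial genes 9 were higher and none lower (median log2 ratio 1.75, sum 2291 versus 948 CPM), and in the nuclei at 0 the count was 9 of 12 (median 1.79). Clec3b, which encodes tetranectin, was at 82.6 CPM at E18.5 and 8.58 at E14.5, a 9.63-fold difference (4.81 to 22.6). Dpp4, a surface peptidase of interstitial progenitors, was at 88.6 and 15.0 CPM (5.90-fold), and the fibrillin gene Fbn1 at 790 and 320 CPM (2.47-fold, 2.19 to 2.80). Pi16, a marker of adventitial fibroblasts, was at 24.4 CPM at E18.5 with 0 UMIs at E14.5 (at least 7.57-fold higher). Without nuclei holding markers of other classes, the count of 9 became 4.

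Of 25 matrix genes 7 were higher at E18.5 (median 0.56), among them Col1a1, the main fibrillar collagen, at 1067 versus 311 CPM (3.43-fold, 3.04 to 3.88), and Eln, which encodes elastin, at 189 versus 56.8 CPM. Imprinted growth genes were higher for 4 of 16, with the growth-restraining RNA H19 at 242 versus 83.6 CPM (2.89-fold, 2.28 to 3.70) and Meg3 at 7761 versus 3443 CPM (2.25-fold, 2.17 to 2.34). Both lists pointed the same way in the nuclei at 0, with 9 and 4 genes higher. Of 28 mitogen genes 1 was higher and 2 were lower (median 0.14), beside 10.6 and 5.19% of all genes, so no shift of the list is read from them. In nuclei at 0, 4 were higher and 1 lower. Pdgfc, a PDGF ligand, was at 28.9 versus 160 CPM (5.52-fold lower, 4.19 to 7.32). Gas6, a ligand of TAM receptors, was at 27.2 versus 8.58 CPM. Of 15 limb factors 2 were lower at E18.5 and none higher (median −0.63), Meis2 at 395 versus 850 CPM and Pitx1. Pitx1, the hindlimb identity factor, was at 31.1 versus 68.6 CPM (2.21-fold lower, 1.58 to 3.08), and Foxp2 at 307 versus 807 CPM (2.63-fold lower, 2.38 to 2.897). Klf9, a hormone-responsive factor, was at 22.6 versus 2.14 CPM, from 2 UMIs at E14.5 (10.5-fold, 2.80 to 88.9).

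Genes of the cycle itself were seldom called between these ages. None of the 32 kinetochore, 26 spindle, 16 cytokinesis and 20 DNA repair genes was called, with medians of 0.07, 0.05, 0.13 and −0.22. Single genes were higher at E18.5 in the other lists, namely Gins3 (54.0 versus 24.7 CPM), Pold1 (26.8 versus 5.36 CPM), Cdk2 (59.7 versus 23.6 CPM), E2f1 (43.8 versus 21.4 CPM) and the lamin gene Lmnb2 (44.1 versus 12.9 CPM). Of 9 measured histone genes 3 were lower at E18.5, with a summed level of 191 versus 546 CPM, and Hist1h2ap alone went from 286 to 42.4 CPM (6.76-fold lower, 5.43 to 8.46). The histone count became 1 without nuclei holding other markers. Of 14 measured inhibitors 4 were higher at E18.5, led by Cdkn2d (11.6 versus 2.14 CPM) and with Cdkn2c (40.6 versus 13.9 CPM), but none was without nuclei holding other markers. Macrophage genes also moved in this comparison, at 7.51 CPM at E14.5 and 196 CPM at E18.5 summed over 8 genes, as did the myonuclear list, at 899 and 1394 CPM, and their part in the counts was not tested.

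Outside the lists, the largest differences toward E18.5 included Tnxb, Aldh1a1, Lvrn and Atp2a1. Tnxb, a tenascin of collagenous tissue, was at 445 versus 20.4 CPM (21.8-fold, 13.9 to 36.4) and was found in 248 of 301 members at E18.5. Lvrn, an aminopeptidase, was at 244 versus 17.2 CPM (14.2-fold, 8.68 to 24.98). Atp2a1, the calcium pump of fast muscle fibers, was at 34.6 CPM at E18.5 with 0 UMIs at E14.5, and 24 of its 98 UMIs came from 1 nucleus. The largest toward E14.5 were Hs3st4, Kif26b, Corin, Rmst and Unc5d. Kif26b, a kinesin-like protein, was at 2.82 CPM at E18.5 versus 158 CPM at E14.5 (55.8-fold lower, 27.6 to 132) and was found in 47 of the 151 members of that age. Hs3st4 had 0 UMIs at E18.5 and was at 70.8 CPM at E14.5. Unc5d, a netrin receptor, was at 7.41 versus 232 CPM, with 83 of its 216 UMIs at E14.5 in 1 nucleus.

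From E18.5 to P5 single genes of replication licensing, G1, limb patterning and imprinting were lower in the members. Mitotic genes, whose program chose the members of both libraries, stayed close. In all, 374 of 10423 genes (3.59%) were higher and 885 (8.49%) lower at P5, with a median log2 ratio of −0.10 over all genes. In the nuclei at 0, 4.3% were higher and 8.24% lower. In the licensing list 4 of 22 genes were lower and none higher (median −0.53, sum 804 versus 1068 CPM), in the DNA synthesis list 3 of 31, a share near that of all genes (median −0.39), and among cyclins and kinases 4 of 21 (median −0.35). The nuclei at 0 showed 8 of 20, 10 of 29 and 6 of 18 lower in these lists, with medians of −0.86, −0.74 and −0.83. Gins2, a subunit of the replicative helicase, was at 5.53 CPM at P5 and 21.9 at E18.5 (3.96-fold lower, 1.47 to 15.0), on 4 UMIs at P5. Of the D-type cyclins, which answer growth factors, Ccnd1 and Ccnd2 were lower and Ccnd3 was not called (45.6 versus 82.96 CPM). Ccnd1 was at 4.15 versus 17.6 CPM (4.26-fold, 1.38 to 21.3, on 3 UMIs) and Ccnd2 was at 26.3 versus 69.2 CPM. Ccne1, the G1/S cyclin, was at 8.29 versus 21.5 CPM and the phosphatase Cdc25a at 23.5 versus 53.3 CPM. The DNA synthesis count was 8 without nuclei holding other markers and 1 without those whose other markers exceeded the gate sum.

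The mitotic lists differed less, with 1 of 32 kinetochore genes lower (Cenpw, at 15.2 versus 41.3 CPM), no spindle or cytokinesis gene called, and medians of −0.17, −0.06 and −0.06. Among the inhibitors, Cdkn1c was at 69.1 CPM at P5 versus 196 at E18.5 (2.83-fold lower, 2.12 to 3.86) and in nuclei at 0 at 114 versus 224 CPM. Txnip, which restrains glucose uptake and growth, was at 55.3 versus 16.2 CPM (3.402-fold higher, 2.17 to 5.32) and in nuclei at 0 at 48.0 versus 16.8 CPM. The inhibitors with calls thus went in opposite directions.

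Of 15 limb factors 4 were lower at P5 (median −0.67), namely Twist1, Tbx4, Pitx1 and Tbx3. Pitx1 was at 5.53 versus 31.1 CPM (5.62-fold lower, 2.12 to 21.1), and the hindlimb factor Tbx4 at 12.4 versus 34.6 CPM. Without nuclei holding other markers this count was 1. Imprinted genes were lower for 3 of 16, with Dlk1, a Notch ligand relative of fetal tissues, at 716 versus 1643 CPM, Ndn at 11.1 versus 35.3 CPM and Peg10 at 17.97 versus 64.6 CPM (3.60-fold, 2.05 to 6.88). Matrix genes were lower for 3 of 25, near the 8.49% of all genes, with a median of 0.01 and sums of 15325 versus 15759 CPM. In nuclei at 0, 2 of 25 were lower. The 3 in members were the fetal fibrillin gene Fbn2 at 493 versus 1157 CPM, Col6a3 at 361 versus 729 CPM and Col12a1 at 428 versus 1026 CPM (2.39-fold, 2.13 to 2.70). Adventitial genes were higher for 1 of 11 in members, Anxa3 at 101 versus 41.3 CPM, and for 4 of 12 in nuclei at 0, whose summed level went from 2730 to 5252 CPM versus 2291 to 3164 CPM in members. The difference between members and nuclei at 0 in this step was not tested.

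Runx1, a factor of mesenchymal and blood cells, was at 101 CPM in P5 members against 24.7 at E18.5 (4.08-fold higher, 2.897 to 5.75), while nuclei at 0 were at 24.7 and 19.6 CPM. Its 73 UMIs at P5 came from 19 of 87 members, 22 of them from 1 nucleus. Without that nucleus its log2 ratio to nuclei at 0 was 1.52. In P5 members myonuclear genes summed to 2213 CPM versus 496 in nuclei at 0 and 1394 in E18.5 members, Pax7, the muscle stem cell factor, to 24.9 versus 8.83 CPM at E18.5, and the macrophage list to 231 CPM, and their part in the Runx1 value was not tested. The largest values toward P5 outside the lists, Atp6v0d2, Myh2, Slc9b2, Kcnh7 and Nyap2, rested on single nuclei. All or nearly all UMIs of Atp6v0d2 (26), Slc9b2 (34) and Nyap2 (23) sat in 1 nucleus of 11738 UMIs that held 42 macrophage and 27 gate UMIs, 29 of 30 Myh2 UMIs in a nucleus with 385 myonuclear UMIs and 80 of 81 Kcnh7 UMIs in a nucleus with 258. Toward E18.5 the largest were Nrg1, Lingo2, Il1rapl2, Gabrb1 and Mapk10. Nrg1, the neuregulin ligand of glia and muscle, was at 29.0 CPM at P5 versus 750 at E18.5 (25.9-fold lower, 16.9 to 41.9) and was found in 8 of 87 and 140 of 301 members. In nuclei at 0 it was at 37.9 versus 962 CPM. Il1rapl2 was at 24.9 versus 413 CPM (16.6-fold lower, 10.5 to 28.1) in members and at 76.1 versus 617 CPM in nuclei at 0.

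Without Cacna1s, cycling nuclei at E18.5 had lower levels of adventitial progenitor genes and higher levels of several secreted growth factors and of adipogenic genes. Cell cycle genes, whose program chose the members of both libraries, stayed close to WT. In all, 720 of 11426 genes (6.3%) were higher and 475 (4.16%) lower in the KO, with a median log2 ratio of −0.02. In the nuclei at 0, 6.86% were higher and 5.85% lower. The counts of higher and lower genes were 1858 and 532 with no upper UMI limit, 488 and 627 without Scrublet doublets and 300 and 367 without nuclei holding other markers, so the balance between the directions turned in the latter pair. Of 11 adventitial genes 8 were lower and none higher (median −1.36, sum 1146 versus 2291 CPM), and of 12 in the nuclei at 0 also 8 (median −1.18, sum 1288 versus 2730 CPM). Ly6a, the surface antigen Sca-1, was at 2.81 CPM in the KO against 18.4 in WT (6.54-fold lower, 3.29 to 14.4), Pi16 at 4.77 versus 24.4 CPM (5.10-fold, 2.97 to 9.26) and Cd55, a complement regulator, at 28.9 versus 115 CPM (3.98-fold, 3.18 to 5.02). Sema3c was at 392 versus 886 CPM and Clec3b at 32.3 versus 82.6 CPM (2.56-fold, 2.04 to 3.23). Of these 5 genes, Sema3c and Cd55 were also below the WT E14.5 values of 438 and 34.3 CPM. Without nuclei holding other markers, 3 of the adventitial genes were lower.

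Mitogen ligands and receptors were higher for 5 of 28 genes and lower for none (median 0.36, sum 7737 versus 5895 CPM). Fgf10 was at 291 CPM in the KO against 91.4 in WT (3.18-fold, 2.77 to 3.66) and in nuclei at 0 at 349 versus 154 CPM. The other 4 were Pdgfc at 69.3 versus 28.9 CPM, Fgf7 at 241 versus 120 CPM, Hgf, a ligand that activates muscle progenitors, at 145 versus 71.3 CPM and Lifr, the receptor of leukemia inhibitory factor, at 316 versus 140 CPM. In nuclei at 0, 3 of the 28 genes were higher and 1 lower (median 0.26, sum 9165 versus 7138 CPM). The count of 5 in members was 3 without nuclei holding other markers, with no upper UMI limit and under mitochondrial and ATAC limits. Matrix genes were lower for 2 of 25, Tnc, the tenascin-C of tendon and stretched tissue, at 42.4 versus 105 CPM (2.48-fold, 2.03 to 3.04) and Adamts2, a procollagen peptidase, at 66.8 versus 155 CPM. In nuclei at 0 Tnc was at 17.1 versus 92.1 CPM, a wider gap than in members. Among gate genes, Mfap5 was at 30.3 versus 129 CPM (4.26-fold lower, 3.43 to 5.33), Dpt at 21.1 versus 77.3 CPM and Lum at 40.7 versus 81.5 CPM. The Krüppel-like factor Klf4 was at 11.8 versus 53.7 CPM (4.55-fold lower, 3.22 to 6.57), the immediate early factor Jun at 9.26 versus 39.2 CPM (4.23-fold, 2.85 to 6.44) and imprinted Ndn at 8.14 versus 35.3 CPM (4.34-fold, 2.84 to 6.80). Klf4, Jun and Ndn were as far apart in the nuclei at 0, at 11.3 versus 58.8, 10.8 versus 43.2 and 9.31 versus 39.6 CPM.

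Of 8 measured adipogenic genes 7 were higher in the KO (median log2 ratio 3.82, sum 565 versus 148 CPM), and in nuclei at 0 5 of 6 (341 versus 151 CPM). Pparg, the master factor of fat cells, was at 252 CPM in KO members against 32.5 in WT (7.75-fold, 6.25 to 9.72), Fabp4, a fatty acid carrier, at 36.2 versus 2.12 CPM (17.1-fold, 7.64 to 47.4, on few UMIs in WT) and Cd36, a fatty acid receptor, at 89.3 versus 35.3 CPM. A small group of nuclei carried much of the sum. In 16 KO members the adipogenic UMIs exceeded those of the gate genes, and in the other 280 the list was at 222 CPM and Pparg at 86.4 CPM, against 129 and 23.4 CPM in 300 WT members. Without nuclei holding other class markers, 3 of the adipogenic genes were higher.

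Genes of division were seldom called between KO and WT members. No kinetochore, spindle, cytokinesis, cohesin, anaphase-promoting or cycle transcription factor gene was called. Single genes were lower in the KO in other lists, namely Fanca, a core Fanconi gene, at 26.9 versus 68.5 CPM (2.54-fold, 1.98 to 3.28), Pold1 at 11.5 versus 26.8 CPM, Recql4 at 3.65 versus 8.47 CPM, Cks1b at 3.93 versus 8.12 CPM, Cdkn2d at 4.77 versus 11.6 CPM and Hist1h4i at 2.53 versus 7.41 CPM (9 and 21 UMIs). Txnip of the inhibitor list was higher, at 32.6 versus 16.2 CPM. The licensing and DNA synthesis lists had medians of −0.39 and −0.30 with 1 gene lower in each.

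Myogenic progenitor genes were higher in the KO members for 4 of 7 genes, with Pax7 at 35.4 versus 8.83 CPM (4.01-fold, 2.59 to 6.43) and a list sum of 307 versus 131 CPM, but for 1 gene without Scrublet doublets and for none without nuclei holding other markers, a filter that uses the genes of this list. Schwann cell genes summed to 102 versus 38.8 CPM, macrophage genes to 326 versus 196 CPM and erythroid genes to 53.1 versus 13.1 CPM in the KO and WT members, and the part of such nuclei in the other differences was not tested. Runx1 was at 70.7 versus 24.7 CPM (2.86-fold), and its log2 ratio of 1.52 became 0.33 without Scrublet doublets. Outside the lists, the largest toward the KO were Gria2, Gm17167, Cdh20, Grik3 and Akr1c19. Gm17167 was at 23.6 versus 0.353 CPM and its 84 UMIs came from 60 nuclei, whereas the 164 Cdh20 UMIs came from 17 nuclei, 95 of them from 1 nucleus, and the 89 Gria2 UMIs from 7 nuclei, 33 of them from 1. The largest toward WT were Tppp, Tppp3, Gm12159, Myh13 and Fam167a. Tppp3, a tubulin-binding protein of fibroblasts and tendon sheath, was at 1.96 versus 37.8 CPM (19.2-fold lower, 9.01 to 49.0) and was found in 73 of 301 WT and 7 of 296 KO members. The UMIs of Gm12159 and Myh13 came almost entirely from 1 WT nucleus each.

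**Figure D3:**
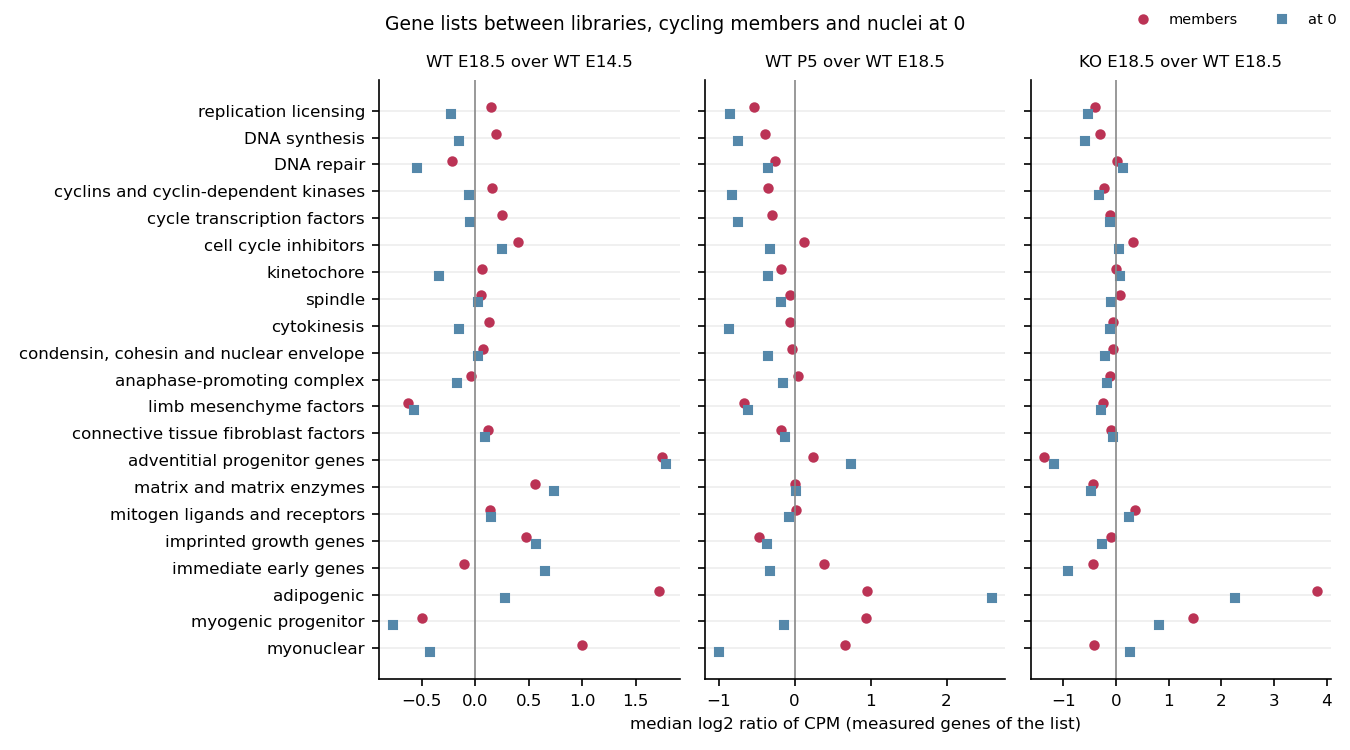
Median log2 ratio of CPM of the measured genes of each list (rows) in the 3 comparisons between libraries (panels), for members (circles) and gated nuclei at 0 (squares). Adventitial genes lie at 1.75 from E14.5 to E18.5 and at −1.36 from WT to KO in members, and adipogenic genes at 3.82 in the KO panel. Kinetochore, spindle and cytokinesis genes lie near 0 for members in each panel, where genes of the same program chose the members.

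Open chromatin was read in the same nuclei and played no part in the choice of members. The median ATAC count per member was 2193, 5294, 8828 and 2701, against 1976, 3918, 3624.5 and 1518 in the nuclei at 0. The ratios of these medians were 1.11, 1.35, 2.44 and 1.78, and against nuclei at 0 with at least the UMI count of the lower quartile of the members they were 1.26, 1.23, 1.92 and 1.11. The members thus had more ATAC counts per nucleus in each library, but they also held more UMIs. The median ATAC count per UMI was 0.412, 0.673, 1.16 and 0.275 in members and 0.449, 0.730, 0.852 and 0.242 in nuclei at 0. Per UMI the members were thus lower at E14.5 and E18.5 and higher at P5 and in the KO. Peaks were called by the authors within each library (61874 to 91265 peaks in these 4), so levels were compared within libraries only.

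As a share of all ATAC counts, the peaks within 1 kb of the starts of the 5 cycling genes were higher in members than in nuclei at 0, with ratios of 1.41 (1.20 to 1.66), 1.45 (1.33 to 1.57), 1.38 (1.21 to 1.58) and 1.76 (1.53 to 2.02). All promoter peaks together had ratios of 0.999, 0.995, 1.00 and 0.996. Of the single genes, Aspm had ratios of 1.26, 1.53, 1.74 and 2.21, Mki67 1.40, 1.53, 1.69 and 2.21 and Anln 2.21, 1.69, 1.41 and 1.57, while Top2a had 0.939, 1.19, 0.997 and 1.36. Top2a was thus below 1 in 2 libraries and Aspm, Mki67 and Anln in none. Ccnb2, with 3 CCAAT boxes in the sequence above, had ratios of 1.13, 2.18, 2.20 and 2.39, and Plk1 1.16, 2.79, 0.972 and 2.17. Both were chosen after their values were seen. Other mitotic genes were below 1 in some libraries, with Ccnb1 at 1.08, 1.35, 0.646 and 1.27 and Cdk1 at 0.893, 1.59, 1.30 and 0.967. Counting intervals of single genes were wide, such as 0.403 to 0.993 for Ccnb1 and 0.505 to 1.74 for Plk1 at P5.

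Promoters of replication-dependent histones were also higher in members, with ratios of 1.36 (1.24 to 1.49), 1.46 (1.39 to 1.54), 1.76 (1.64 to 1.88) and 1.45 (1.36 to 1.55), although their RNA was scarce. Cytokinesis promoters had ratios of 1.18, 1.18, 1.30 and 1.49, DNA repair promoters 1.17, 1.15, 1.18 and 1.24 and spindle promoters 1.05, 1.18, 1.18 and 1.35. Licensing promoters stayed near 1 outside P5, at 0.969, 0.964, 1.15 and 1.04. The chromatin ratios of these lists were thus far smaller than their RNA ratios. Matrix promoters were at 0.927, 0.948, 0.916 and 0.952 and the gate promoters at 0.951, 0.941, 0.793 and 0.880, with intervals of the gate that exclude 1 only at P5 (0.694 to 0.903). Without nuclei holding other markers the P5 ratio of the gate was 1.08. Promoters of the adventitial list were at 1.06, 1.05, 0.703 and 1.07. The myogenic progenitor promoters were at 1.01, 1.47, 1.82 and 2.35 and the myonuclear ones at 1.26, 1.11, 1.78 and 1.40, and their part in the ratios of cycle promoters was not tested beyond leaving out nuclei with other markers, which gave 1.67, 1.69, 1.11 and 2.24 for the 5 cycling genes. Over all peaks with enough counts, 7.13, 6.72, 8.89 and 9.33% were at least 2-fold higher and 13.4, 7.72, 12.9 and 8.55% at least 2-fold lower in members.

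**Figure D4:**
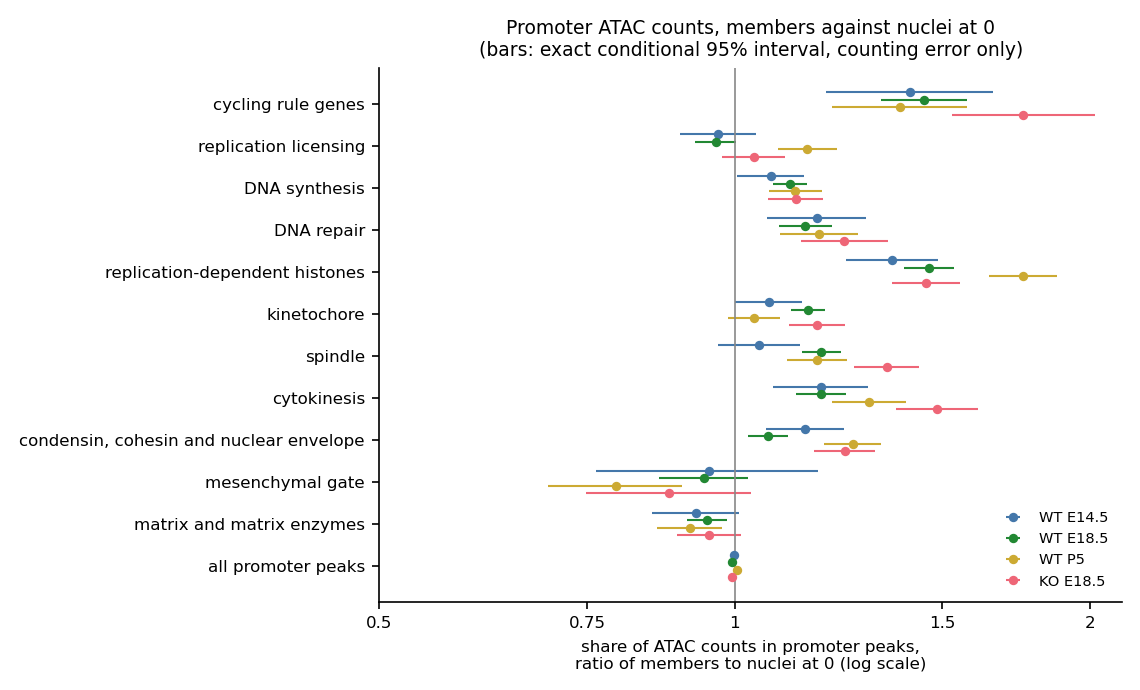
Ratio of members to gated nuclei at 0 for the share of ATAC counts in peaks within 1 kb of the starts of the genes of each list (rows, log axis), 1 point per library with its exact conditional 95% interval as a bar. The 5 cycling genes (1.38 to 1.76) and the histone genes (1.36 to 1.76) lie to the right of 1 in all 4 libraries, and all promoter peaks together lie at 1.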

How the data were processed

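Nuclei of mouse hindlimb muscle were profiled by 10x multiome in 5 libraries, 1 per group, and 4 of them hold members. The deposited values are whole-number counts, UMIs per gene for 32285 genes and ATAC counts per peak, produced by the authors through Cell Ranger ARC 2.0.0 (mm10 build, intronic reads included) and not normalized. Peaks were called within each library. Whether the strand was used is not given in the sources used here. For the KO, the study states more nuclei than the 3621 barcodes of the matrix, and for the other libraries fewer than the UMI limits left here.

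The members, lists and tests were chosen with earlier results of these data known. UMIs were summed over the nuclei of a class and library and given as CPM. Ratios have exact conditional (Clopper-Pearson) 95% intervals, which cover counting error only, and a gene at 0 is given as a bound against a floor of 3 counts. A gene was called at a 2-fold ratio. It was measured within a library with at least 20 UMIs in both classes together and 10 in 1 of them, and between libraries with at least 20 UMIs in 1 of both. Nuclei were thinned to 3000 UMIs to compare shares. With 1 library per group no test or p-value was computed. The scripts were tested on simulated data.

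Named genes were the 5 cycling and 10 gate genes; in each list, against nuclei at 0, the 2 genes with the most UMIs and the 2 with the largest median ratio; between libraries, the gene with the largest ratio in each direction among called genes of a list; and 5 genes in each direction outside the lists. Others were chosen after their values were seen, and some genes that the rule names are not reported here. Doublets were kept, and alternatives leave out Scrublet calls or nuclei with at least 2 UMIs of another class. Other alternatives were no upper UMI limit, limits on mitochondrial and ATAC counts (10%, 400 to 69999), at least 5 UMIs of the cycling genes, deeper nuclei at 0, minimums of 1 and 50 UMIs, TMM factors, thinning to 2000 UMIs, peaks within 200 bases and each library left out. Added after seeing the data were a filter on nuclei whose UMIs of another class exceed the gate sum and the 5 UMI limit for programs and markers. Members held 723541 to 3562550 UMIs per library. Python 3.11.15, numpy 2.4.6, pandas 2.3.3, scipy 1.17.1, matplotlib 3.10.9, scanpy 1.11.5, R 4.3.3 and edgeR 4.0.16 (TMM factors only) were used. Promoter sequences are from RefSeq (GRCm38.p6), and none of the 20 histone genes was matched there.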

Additional observations from a re-analysis of the deposited data

Results flagged for a closer look

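In 3 genes of the 141 named genes reported here that were measured in at least 2 libraries, members and nuclei at 0 differed by at least 2-fold in opposite directions in 2 libraries. The difference between the libraries was not tested, and each library is 1 sample. Atp2a1, the calcium pump of fast muscle fibers, was higher in P5 members (log2 ratio 1.17, 38 UMIs in members and 113 in nuclei at 0) and lower at E14.5 (at most −1.86, 0 and 33 UMIs). At P5, 16 of the 38 UMIs were in 1 nucleus, and without it the log2 ratio was 0.42. Cdh20, a cadherin, was higher in KO members (1.46, 164 and 77 UMIs) and lower at E14.5 (−1.04, 20 and 125 UMIs). In the KO, 95 of the 164 UMIs were in 1 nucleus, and without it the log2 ratio was 0.22. Gria2, a glutamate receptor subunit, was higher in KO members (3.04, 89 and 14 UMIs) and lower at E14.5 (−1.91, 7 and 80 UMIs). In the KO, 33 of the 89 UMIs were in 1 nucleus, and the log2 ratio was 2.38 without it. The ratios without 1 nucleus were chosen after seeing the data, and in these Atp2a1 at P5 and Cdh20 in the KO were below a 2-fold difference.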

How the results depend on the processing

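No paired analysis was possible because each group is 1 library. Over all alternatives, 124 recomputed values of the comparisons moved little and 54 moved, and of those of single genes, promoter lists and gene list counts 4434 moved little, 625 moved and 2 reversed. With at least 5 UMIs of the cycling genes the share of members was 12.9% at E14.5, 17.5% at E18.5 and 24.0% in the KO, G2/M was found in 94.5, 98.6 and 95.2% of members at E18.5, P5 and in the KO, myonuclear genes stood at 1292, 1845 and 1062 CPM, macrophage genes at 178 and 149 CPM at E18.5 and P5, and adipogenic genes at 132 and 537 CPM at E18.5 and in the KO (programs and markers added after seeing the data). With no upper UMI limit the KO share was 34.1%, 3 genes were lower in all libraries, 1858 genes were higher and 532 lower in the KO and Unc79 in the KO went from −1.40 to 0.024. Mitochondrial and ATAC limits left 4 genes lower in all libraries and deeper nuclei at 0 left 3. Without Scrublet doublets the shares were 17.7% at E18.5 and 21.3% in the KO, 16 genes were lower in all libraries, and 488 were higher and 627 lower in the KO. Without nuclei holding other markers the shares were 12.4, 2.56 and 14.8% at E18.5, P5 and in the KO, 154 genes were higher in all libraries, 467 higher at E18.5 than at E14.5 and 300 higher and 367 lower in the KO, the cycling promoters were at 1.67, 1.69, 1.11 and 2.24, and the gate promoters at P5 went from 0.793 to 1.08. With a minimum of 1 UMI, 1581 genes were higher and 2508 lower at E18.5 than at E14.5 and 1889 higher and 1326 lower at P5, which turned both balances, and 1810 were higher and 1494 lower in the KO. With a minimum of 50 UMIs, 3 genes were lower in all libraries, 613 higher and 281 lower from E14.5 to E18.5, 151 and 430 from E18.5 to P5, and 375 and 266 in the KO. Thinned to 2000 UMIs the shares were 11.2, 13.2, 4.34 and 17.5%, and with at least 1 UMI after thinning 27.7, 25.4, 12.4 and 31.3%. Leaving out 1 library at a time, 333 to 415 genes were higher and 15 to 19 lower in the others. Apart from what the construction of each alternative shows, the cause was not tested. Depth limits genes under about 20 UMIs, above all at P5 with 87 members.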
